A study of Mus musculus with 40 samples.

Results

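ES-astrocytes stimulated with C1Q and C5 and their control ES-astrocytes gave 8 of the 40 libraries of the series, 4 in each group, chosen by sample title (astrocyte c1q+c5 and astrocyte control) and not by any measured value. The study grew astrocyte-like cells of brainstem and rostroventral spinal character (ES-astrocytes) from mouse embryonic stem cells, stimulated them for 24 h and, in co-culture with motor neurons derived from the same stem cells (ES-motor neurons), looked for toxicity to the neurons. In all it has 20 ES-astrocyte and 20 ES-motor neuron libraries over 5 treatments, with 4 biological replicates, A to D, in each. Every library held the polyadenylated RNA of about 200 sorted cells and was read out as counts per gene.

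The control group received no mediator. The C1Q+C5 group received complement component 1Q (C1Q) and complement component 5 (C5) together, so that no library holds either protein alone. The other ES-astrocyte groups received IL-1α and TNF-α (the study's positive control), IL-1β and IL-6, or TGF-β2. All groups came from 1 noncommercial stem cell line made from B6.Cg-Tg(Hlxb9-GFP)1Tmj/J mice, in which the motor neuron promoter Hb9 (Hlxb9) drives eGFP. Per the study's methods, all ES-astrocytes, controls included, had been treated with forskolin, grown in medium with fetal bovine serum and kept under eGFP-positive ES-motor neurons. As a model the groups have limits: the line stands for 1 genotype, the stated gating is on eGFP only with no positive marker of astrocytes, and a biological replicate was a vial of cells of a defined passage, so that p-values measure the spread between such cultures and not between animals.

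C1q is the recognition protein of the classical complement pathway and is made mainly by microglia in the brain. It binds apoptotic cells, synapses and immune complexes and starts a protease cascade in which C3 and then C5 are cleaved. C5 itself is inactive; its fragment C5a signals through the G protein coupled receptor C5ar1, and C5b starts the membrane attack complex. Microglial C1q, given with IL-1α and TNF-α, is a known inducer of reactive astrocytes.

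Total counts in control A, B, C and D were 7866943, 13384392, 2848750 and 6467280. In C1Q+C5 A, B, C and D they were 1659425, 10158932, 1510823 and 5056889. The groups overlapped in depth (exact two-sided permutation test, p = 0.343; the smallest p that 4 against 4 libraries can give is 0.0286). Genes with at least 1 count numbered 15481, 13612, 11714 and 12337 in the controls and 11097, 16659, 10789 and 14383 with C1Q and C5 (exact permutation p = 0.971). Levels below are CPM (a gene's share of its library's counts, on the usual counts-per-1000000 scale) on a TMM scale that all 20 ES-astrocyte libraries share, given in the order A, B, C, D, and means are given ± SD with n = 4. A gene with no count in a group lies below 0.1 CPM over the 4 controls or below 0.143 CPM over the 4 C1Q+C5 libraries. Each floor is 3 counts over the group. Such floors, and the intervals of ratios, cover counting error only. A fold given with "at least" sets the other group's mean CPM, with every library weighted alike, against such a floor. On counts summed over the group it can be smaller.

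In their labels the control and the IL-1α and TNF-α libraries carry plate index 1, and the C1Q+C5, the IL-1β and IL-6 and the TGF-β2 libraries plate index 2; what the index stands for is not stated. Plate index and stimulus therefore cannot be told apart in any comparison of C1Q and C5 with control, as neither index holds both groups. The second index did vary within each group, with replicates A and C on S337 and B and D on S339 in both.

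Before any comparison of the groups, 3 libraries stood apart. On the first principal component of the 500 most variable genes (34% of the variance), control A lay at -58.2, C1Q+C5 D at -38.8 and C1Q+C5 B at -29.3. Control B, C and D lay at 47.6, 19.4 and 33, and C1Q+C5 A and C at 15.2 and 11.1. The component therefore split both groups and did not separate them. The same 3 libraries had the 3 highest numbers of genes detected. In control A, 18.7% of counts fell in its 100 most abundant genes and 1.12% on mitochondrially encoded genes. The other controls had 37.8%, 33.3% and 35.7% in the top 100 genes and 3.74%, 3.87% and 3.53% on mitochondrial genes. Spearman's rho across 10865 genes, which are not independent replicates, ran from 0.514 to 0.753 between controls, from 0.63 to 0.742 between C1Q+C5 libraries and from 0.525 to 0.76 between the groups.

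**Figure D1:**
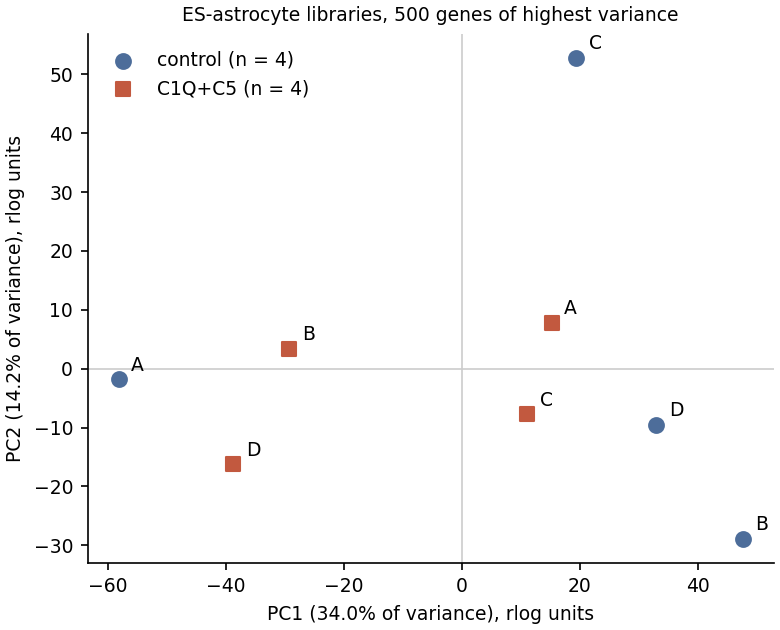
First and second principal components (rlog units) of the 4 control (circles) and 4 C1Q+C5 (squares) ES-astrocyte libraries, from the 500 genes of highest variance, each point 1 library marked with its replicate letter. Control A and C1Q+C5 B and D lie below 0 on the first component, and the other 5 libraries above it.

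Among genes chosen after their loadings on that component were seen, the connexin gene Gja1, a marker of astrocytes, was at 0.1, 134, 161 and 67 CPM in the controls and at 163, 24.4, 121 and 0 CPM with C1Q and C5. Gpx3, which encodes an extracellular glutathione peroxidase, was at 181, 0, 0 and 0 CPM in the controls and at 15.2, 23.5, 3.41 and 54.3 CPM with C1Q and C5. Both genes thus differed more within the groups than between them, with control A and C1Q+C5 D at the same end.

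The label of the cells was checked against a list of 22 astrocyte markers, of which 17 had a count in at least 1 of the 8 libraries. The 5 at 0 in every library were Gfap (the intermediate filament of mature and reactive astrocytes), Aqp4 (the water channel of astrocyte endfeet), Aldh1l1, Gjb6 and Hepacam. S100b had 0 counts in the controls and was at 0.348 CPM in C1Q+C5 B alone. By level per kilobase (kb) of summed exon, the most abundant marker was Fabp7, the fatty acid binding protein of radial glia and immature astrocytes, at a mean of 1280 CPM per kb over the 8 libraries. Sox9 (a transcription factor of gliogenesis) and Glul (glutamine synthetase) followed far lower, at 19.8 and 17.2 CPM per kb, and Slc1a2 and Slc1a3 (the astrocytic glutamate transporters) were at 7.62 and 6.27 CPM per kb. The libraries thus held glial transcripts, the glutamate transporters and Glul among them, without counts of the 5 markers named above.

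Summed over the list, astrocyte markers reached 676, 3392, 2694 and 2977 CPM in the controls and 3637, 1512, 2942 and 941 CPM with C1Q and C5. Control A and C1Q+C5 B and D, the libraries apart on the first component, had the 3 lowest sums. In bulk RNA, fewer cells of a type and less RNA of that type per cell cannot be told apart. Fabp7 itself was at 526, 2277, 1855 and 2284 CPM in the controls and at 2247, 1038, 1964 and 611 CPM with C1Q and C5, so that the groups overlapped widely.

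Markers of other cell types were present. All 14 neural progenitor markers had counts, summing to 973, 2410, 1482 and 1824 CPM in the controls and 2332, 936, 1695 and 1857 CPM with C1Q and C5, with Msi1 (an RNA binding protein of neural stem cells) the most abundant. All 18 neuronal markers had counts as well, and their sums were 3597, 6076, 4344 and 5411 CPM against 5766, 5094, 5430 and 7001 CPM, with Gap43 (a protein of growing axons) the most abundant per length. Neuronal transcripts were therefore plentiful in eGFP-sorted astrocyte libraries of both groups. Motor neuron markers (11 of 12 detected, Slc5a7 at 0) summed to 192, 257, 118 and 469 CPM in the controls and 433, 353, 374 and 370 CPM with C1Q and C5, with Lhx4 the most abundant. What part differing shares of neurons or glia have in any result below was not tested.

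Cells that normally make C1q were not seen. Of 17 markers of microglia and macrophages 12 were at 0 in all 8 libraries, among them Aif1, Cx3cr1, P2ry12, Ptprc, Tyrobp, Trem2 and Spi1. Csf1r, the receptor of macrophage colony stimulating factor, was named after its values were seen: it was at 0.402, 0, 1.81 and 0 CPM in the controls and at 8.43 and 11.8 CPM in C1Q+C5 B and D, with 0 in A and C.

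Markers of the remaining types were few or low. Endothelial markers were at 0 for 8 of 11 (Pecam1 and Cdh5 among them), pluripotency markers for 7 of 11 (Pou5f1 among them), ependymal and choroid plexus markers for 6 of 10, oligodendrocyte lineage markers for 5 of 14 (Sox10 among them) and Schwann cell or neural crest markers for 4 of 10. The most abundant members of these lists were Egfl7, Sall4, Dynlrb2, Nkx2-2 and Ngfr. Sums of the Schwann cell list were 41.1, 17.9, 34.7 and 0.166 CPM in the controls and 0.663, 28.2, 15 and 67.9 CPM with C1Q and C5, and those of the pluripotency list 0.904, 98, 126.8 and 52.7 CPM against 49, 25.6, 88.7 and 9.35 CPM. Sums of the oligodendrocyte list were 48.5, 23.6, 50.2 and 4.82 CPM against 13.3, 26.2, 0 and 27.6 CPM. Fibroblast and mesenchyme markers (14 of 15 detected, Postn at 0) were higher than these, at 1383, 1225, 739 and 384 CPM in the controls and 745, 515, 306 and 406 CPM with C1Q and C5, with Acta2, a smooth muscle actin that cultured glia also make, the most abundant per length. Foxj1, the master regulator of motile cilia, was named after its values were seen: it had 0 counts in all controls and was at 3.98, 0, 5.46 and 5.21 CPM with C1Q and C5.

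The comparison of C1Q and C5 with control asked which transcripts differ after 24 h with both complement proteins, followed by co-culture with ES-motor neurons. Single genes lay apart between the groups, such as Ranbp9 and Nup43, lower with C1Q and C5, and Plekha7 and Zfand2a, which had 1 and 0 counts in the controls but were also seen with other stimuli. Genes so apart were no more frequent than random labels of the libraries would give. Most replication and mitosis genes had a log2 fold change below 0. None of this passed the edgeR test over all genes, while DESeq2 called some genes. The main receptor of C5a, C5ar1, was not detected in any library, and the genes of complement itself had low and scattered counts.

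Of 10865 genes tested with edgeR, 0 (0%) were called, where a call needed both a Benjamini-Hochberg adjusted value no higher than 0.05 and a log2 fold change beyond 1 in either direction. The smallest adjusted p was 1. At an unadjusted p below 0.05 there were 106 genes (0.976%), 64 higher and 42 lower with C1Q and C5, and the median log2 fold change of all genes was -0.07. That share was smaller than the 0.05 expected if no gene differed. The limma-voom fit called 0. DESeq2 called 40 of 12420 genes (0.322%), 33 higher and 7 lower. Of the 33, 12 had 0 counts in all controls, 17 had groups without overlap and 12 had passed edgeR's filter on low counts; of the 7 lower genes, 2 were at 0 in all C1Q+C5 libraries, and all 7 had groups without overlap and had passed the filter.

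The CPM values of the groups did not overlap for 194 of the 10865 genes (1.79%), 111 with C1Q and C5 above all controls (1.02%) and 83 below (0.764%). Random labels would keep 4 against 4 libraries apart, for a gene without ties, with a probability of 0.0286. The share of 1.79% was not above that. Leaving out control A raised the number of genes at an unadjusted p below 0.05 from 106 to 524. It was 217 without C1Q+C5 B, 199 without control B, 181 without control C and 173 without control D, with 0 genes called by edgeR each time. Leaving out control A and C1Q+C5 B and D together, an alternative chosen after seeing the data, gave 0 called genes of 10156 and 362 at an unadjusted p below 0.05 by edgeR, 133 higher and 229 lower.

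Genes of smallest p are given next as values, since none was called by edgeR. DESeq2 called 12 of them. On the lower side these were Ranbp9, Nup43, Mbnl3 and Mpp1. On the higher side they were Plekha7, Zfand2a, Adamts1, Snx9, Spock3, Pcdh8, Npnt and Src. Ranbp9 (ENSMUSG00000038546, chromosome 13, 43402675 to 43481282 in GRCm38), which encodes a scaffold protein that binds the GTPase Ran, was at 68.1, 95.6, 22.8 and 87.8 CPM in the controls and at 7.29, 7.73, 6.82 and 7.51 CPM with C1Q and C5. All C1Q+C5 libraries lay in a narrow band under the lowest control. The log2 fold change was -3.22 ± 0.68 (SE), with an edgeR p of 0.000491 before adjustment and 1 after it; the DESeq2 adjusted p was 1.9e-05. Leaving out single libraries moved the log2 fold change between -3.52 and -3.04.

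Ranbp9 also lay below the other stimulated cells. In the 16 other ES-astrocyte libraries, which include the controls, it ran from 9.23 to 111.5 CPM. All 16 were above the highest C1Q+C5 library. Ranbp9 was chosen by its p against the controls, so that the place of the controls above is no separate result. Its mean was 46.3 ± 38.8 CPM with IL-1α and TNF-α, 75.8 ± 34.8 CPM with IL-1β and IL-6 and 52.4 ± 13.7 CPM with TGF-β2, against 7.34 ± 0.39 CPM with C1Q and C5. In direct edgeR comparisons the log2 fold change was -2.64 ± 0.83, -3.3 ± 0.62 and -2.83 ± 0.62 in that order (edgeR unadjusted p = 0.00769, 0.00015 and 0.00058; Benjamini-Hochberg adjusted p = 1 in each). The last pair of comparisons lies within plate index 2, and all comparisons share the 4 C1Q+C5 libraries, on whose low values the gene was chosen.

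Nup43 (ENSMUSG00000040034, chromosome 10, 7667503 to 7678881), a subunit of the nuclear pore, was at 106, 66.3, 200 and 151 CPM in the controls and at 39.1, 47.3, 32.1 and 18.1 CPM with C1Q and C5. Every C1Q+C5 library was below every control, with a log2 fold change of -1.95 ± 0.51 (edgeR unadjusted p = 0.0026). Against IL-1α and TNF-α the log2 fold change was -1.87 ± 0.42 (edgeR unadjusted p = 0.000727). Against IL-1β and IL-6 it was -0.44 ± 0.92, where the groups overlapped, and against TGF-β2 -1.08 ± 0.5.

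Mbnl3 (ENSMUSG00000036109, chromosome X, 51117269 to 51206532), a splicing regulator of the muscleblind family, was at 2.01, 21.1, 23.9 and 23.1 CPM in the controls and had 0 counts in all C1Q+C5 libraries, at least 123-fold lower (edgeR unadjusted p = 0.00221). It passed the filter on low counts only through the controls, so that its p-value is not independent of that filter. It was also at 0 in several libraries of the other stimuli, whose means were 18.9 ± 36.4 CPM with IL-1α and TNF-α, 2.34 ± 4.67 CPM with IL-1β and IL-6 and 1.96 ± 2.46 CPM with TGF-β2. Mpp1, a membrane palmitoylated scaffold protein, was at 22.3, 23, 22 and 18.3 CPM in the controls and 0.663, 1.48, 0 and 3.83 CPM with C1Q and C5. Its log2 fold change was -3.74 ± 1.4 (edgeR unadjusted p = 0.0206).

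Orc4, Eif1ax, Spc25, Fam92a, Gcsh and Rfc4 made up the other genes of smallest p with lower values. Orc4 (ENSMUSG00000026761, chromosome 2, 48902824 to 48950277), a subunit of the complex that marks replication origins, was at 126, 229, 279 and 139 CPM in the controls and at 73.6, 105, 120 and 67 CPM with C1Q and C5. The groups came close but did not overlap, and 15 of the 16 other ES-astrocyte libraries, controls included, were above the highest C1Q+C5 library. As with Ranbp9, the gene was chosen by its p against those controls. Its log2 fold change was -1.08 ± 0.4 against control, -1.39 ± 0.38 against IL-1α and TNF-α, -1.42 ± 0.41 against IL-1β and IL-6 and -1.11 ± 0.38 against TGF-β2.

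Eif1ax, a translation initiation factor, was at 252, 470, 441 and 460 CPM in the controls and 169, 231, 162 and 212 CPM with C1Q and C5 (log2 fold change -1.07 ± 0.35, edgeR unadjusted p = 0.00992). Spc25, a kinetochore subunit, was at 527, 507, 423 and 569 CPM against 250, 351, 294 and 170 CPM (-0.94 ± 0.35, edgeR unadjusted p = 0.0198). Each lay wholly below the controls. Fam92a, a ciliary protein, had means of 125 ± 29.4 CPM in the controls and 49.2 ± 16.1 CPM with C1Q and C5, and Gcsh, a subunit of the glycine cleavage system, 142 ± 11.9 and 69.3 ± 22.1 CPM, again without overlap.

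On the higher side, the 8 genes of smallest p had 0 or 1 count in the 4 controls together. They passed the filter on low counts only through the C1Q+C5 group, where they are high. Their p-values, folds and lack of overlap are therefore not independent of that filter and are given as values only. Plekha7 (ENSMUSG00000045659, chromosome 7, 116123485 to 116308376), a component of adherens junctions, was at 0, 0.0887, 0 and 0 CPM in the controls and at 13.9, 3.91, 12.3 and 4.14 CPM with C1Q and C5. The ratio of the groups was 159 (95% Clopper-Pearson interval of counting error 27.9 to 6320), with an edgeR unadjusted p of 0.00138. Its means were 0.169 ± 0.338 CPM with IL-1α and TNF-α, 2.43 ± 4.7 CPM with IL-1β and IL-6 and 3.53 ± 3.87 CPM with TGF-β2, so that within plate index 2 the values overlapped those with C1Q and C5.

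Zfand2a (ENSMUSG00000053581, chromosome 5, 139471211 to 139484549), a stress-induced adaptor of the proteasome, had 0 counts in the controls and was at 11.9, 5.39, 6.82 and 12.4 CPM with C1Q and C5, at least 91.4-fold higher (edgeR unadjusted p = 0.00167). The other stimuli had means of 7.87 ± 15.1, 7.11 ± 7.04 and 7.87 ± 9.48 CPM (IL-1α and TNF-α, IL-1β and IL-6, TGF-β2). The C1Q+C5 values thus lay above all controls and within the range of each other stimulus.

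Pcdh8, a protocadherin, had 0 counts in the controls and was at 4.64, 6.61, 34.1 and 14.6 CPM with C1Q and C5 (at least 150-fold). Npnt, the matrix ligand nephronectin, had 0 counts in the controls and was at 11.9, 9.99, 21.8 and 3.37 CPM (at least 118-fold). Src, the tyrosine kinase, had 0 counts in the controls and was at 1.99, 7.21, 15.7 and 8.74 CPM (at least 84.1-fold). Adamts1, an extracellular protease, followed the same pattern at 10.6, 7.3, 2.73 and 2.91 CPM (at least 58.9-fold). Snx9, a sorting nexin of endocytosis, and Spock3, a proteoglycan, each had 1 count in control A. Their means were 12.2 ± 9.11 and 7.56 ± 5.08 CPM with C1Q and C5. Ratios from summed counts were 217 (95% interval 38.4 to 8630) and 149 (26.1 to 5920). In the 16 other ES-astrocyte libraries Pcdh8 reached 12.1 CPM, Npnt 9.89 CPM and Src 12 CPM, each below the highest C1Q+C5 library, while Adamts1 reached 18.8 CPM, Snx9 23.1 CPM and Spock3 16.2 CPM, each above it in 1 library.

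Usp7 and Bace1 were the abundant genes on this side. Usp7, a deubiquitinase that stabilises Mdm2, was at 15.6, 23.4, 38.7 and 21.8 CPM in the controls and at 56.3, 53.7, 94.8 and 125 CPM with C1Q and C5 (log2 fold change 1.74 ± 0.55, edgeR unadjusted p = 0.00854). Bace1, the β-secretase that cleaves the amyloid precursor protein, was at 33.6, 47.3, 33.2 and 19.8 CPM against 129, 61.9, 83.9 and 102 CPM (1.49 ± 0.5, edgeR unadjusted p = 0.011). Neither overlapped with the controls. Against the other stimuli the Bace1 log2 fold change was 0.33 ± 0.43, 0.85 ± 0.55 and 0 ± 0.44, and that of Usp7 0.71 ± 0.49, 0.66 ± 0.52 and 0.58 ± 0.58 (IL-1α and TNF-α, IL-1β and IL-6, TGF-β2).

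**Figure D2:**
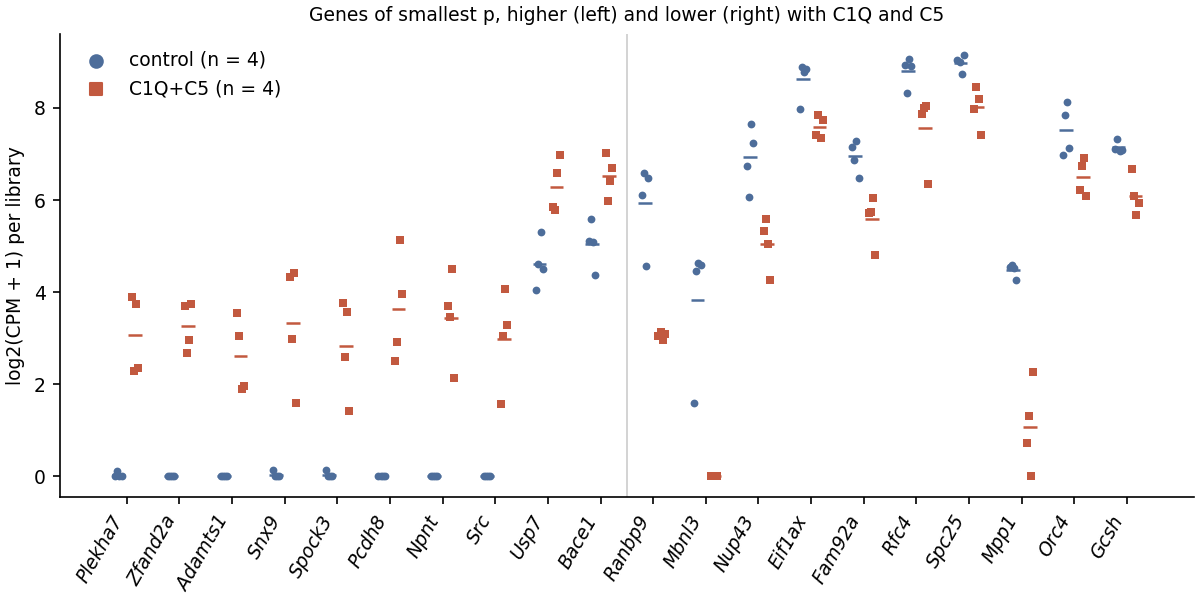
Level of the 10 genes of smallest p in each direction, as log2(CPM + 1), in 4 control (circles) and 4 C1Q+C5 (squares) ES-astrocyte libraries; each point is 1 library and each bar the mean of a group's log2 values. The groups do not overlap for any of the 20 genes, none of which was called by edgeR and 12 of which were called by DESeq2.

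Receptors and binding partners of C1q and of C5a come first among the genes of complement. Of 18 listed, 10 had a count in the 8 libraries and 8 passed the filter. C5ar1, the main receptor of C5a, had 0 counts in all 8, as did C3ar1, Cd93, Scarf1, Lair1, Itga2, Itgam and Itgb2. C5ar2, the second receptor of C5a, had 1 count, in control B, and Cr2, which binds C3 fragments, likewise. In the C1Q+C5 libraries neither receptor of C5a had a count.

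Of the detected binding partners, the most abundant per length were Calr and C1qbp, proteins that bind C1q, at means of 67.8 and 44.3 CPM per kb over the 8 libraries. Itgb1, a subunit of the C1q binding integrin whose partner Itga2 was at 0, had 24.7 CPM per kb. Megf10, an astrocytic phagocytosis receptor that binds C1q, had 2.88 CPM per kb, Cr1l, which regulates C3 convertases, 2.82, Cd36, a scavenger receptor, 0.871, Adgrb3, a receptor of C1q-like proteins, 0.515, and Lrp1, an endocytic receptor, 0.172.

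Megf10 was at 4.32, 30, 19.5 and 31.9 CPM in the controls and at 25.8, 14.3, 49.1 and 2.61 CPM with C1Q and C5. Its lowest values were in control A and C1Q+C5 D, and the groups overlapped. Calr had means of 190 ± 34.5 CPM in the controls and 200.1 ± 47.2 CPM with C1Q and C5, and C1qbp 158 ± 109 and 92.5 ± 70.6 CPM, each with overlap. Of the 8 tested, 0 were called by edgeR or DESeq2, 0 had an unadjusted edgeR p below 0.05, 5 had a log2 fold change above 0 and 3 below. The list's median was 0.08, against -0.07 over all genes tested. Without control A it was -0.11, against 0.08 over all genes.

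**Figure D3:**
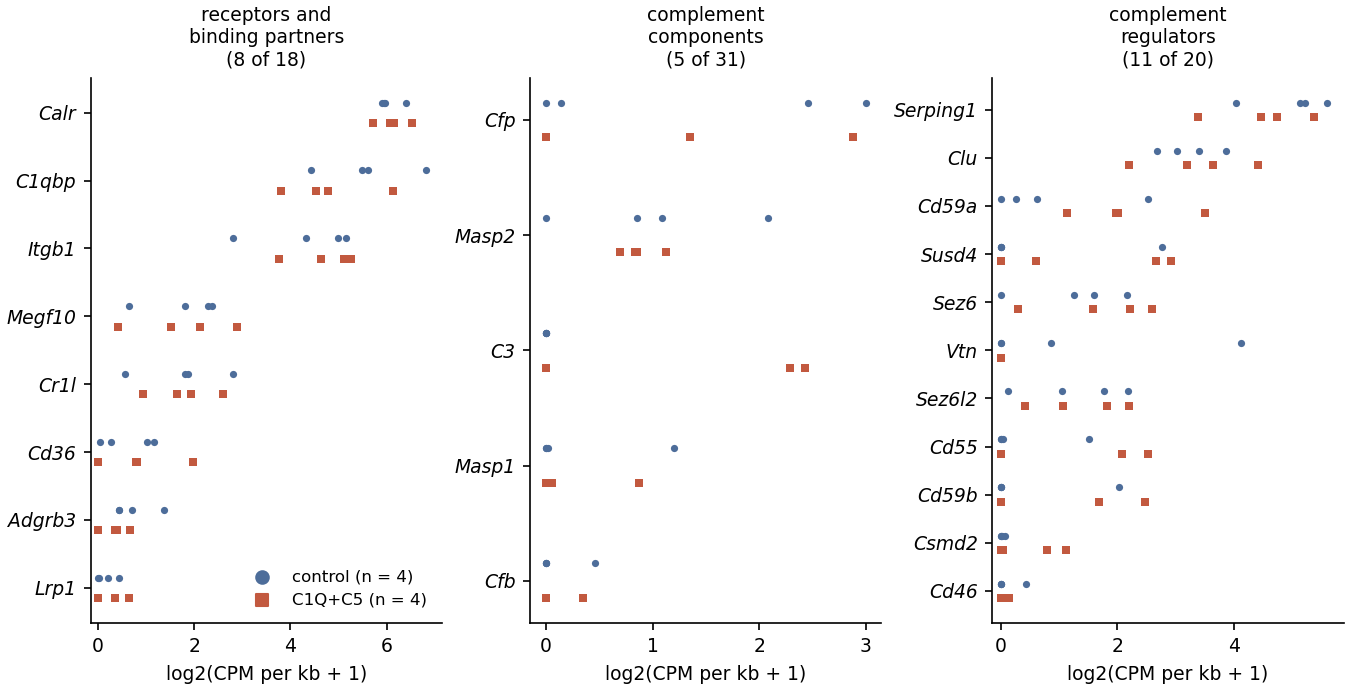
Level as log2(CPM per kb of exon + 1) of each gene with a count in at least 2 of the 8 libraries among receptors and binding partners of C1q and C5a, complement components and complement regulators, in 4 control (circles) and 4 C1Q+C5 (squares) ES-astrocyte libraries; each point is 1 library. Calr, C1qbp, Itgb1 and Serping1 are present in every library, while most components have a count in few libraries.

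Complement components themselves were nearly silent. Of 31 listed, 17 had 0 counts in all 8 libraries, among them C1qa, C1qb and C1qc, which encode the chains of C1q. C3, the central component, had 0 counts in the controls and was at 22.5, 0, 0 and 20.1 CPM with C1Q and C5 (exact permutation p = 0.429). It was thus high in C1Q+C5 A and D and at 0 in B and C, and did not pass the filter. Hc, the mouse gene of C5, was at 6.63 CPM in control A and at 0 in the other 7 libraries.

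Only Masp2, a protease of the lectin pathway, and Cfp (properdin, which stabilises the alternative convertase) were tested. Masp2 was at 3.72, 10.7, 0 and 2.66 CPM in the controls and 2.65, 3.91, 2.05 and 2.61 CPM with C1Q and C5, and Cfp at 7.83, 0.178, 0 and 12.1 CPM against 0, 2.69, 0 and 11 CPM. Both overlapped, 0 were called by edgeR or DESeq2, and the median log2 fold change of the pair was -0.56, which was -1.47 without C1Q+C5 D, -0.21 without control D and 0.38 under another setting. Mbl2, a mannose binding lectin, was at 9.14 CPM in control D alone, and Colec12, C8g and Cfd were seen in 1 control each. C2, C4a, C1ra and Colec10 were seen in 1 C1Q+C5 library each, at 1.36 CPM in C, 2.09 CPM in B, 0.46 CPM in D and 0.153 CPM in D. Cfb was at 1.07 CPM in control B and 0.766 CPM in C1Q+C5 D, and Masp1 at up to 12.7 CPM in the controls and 8.19 CPM with C1Q and C5.

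Regulators of complement were present more often, with 16 of 20 detected and 6 tested, of which 0 were called by edgeR or DESeq2 and 5 had a log2 fold change above 0 (median 0.47, and 1.25 without control A). Serping1, the inhibitor of the C1 proteases, was the most abundant at 28.9 CPM per kb over the 8 libraries, followed by Clu (clusterin, which blocks the membrane attack complex) at 9.92. Serping1 was at 111.5, 79.6, 84.6 and 35.9 CPM in the controls and at 21.9, 95.1, 49.1 and 59.8 CPM with C1Q and C5, and Clu at 32.8, 18.6, 46.6 and 24.4 CPM against 70.2, 39.6, 28 and 12.4 CPM. The groups overlapped for both.

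Cd59a, a membrane inhibitor of the attack complex, was at 0, 0.976, 0.361 and 8.65 CPM in the controls and 5.3, 2.17, 5.46 and 18.7 CPM with C1Q and C5, where control D alone exceeded the lowest C1Q+C5 library. Cd55, which speeds the decay of convertases, was at 0.1, 0, 9.03 and 0 CPM against 0, 15.6, 23.2 and 0 CPM (exact permutation p = 0.429), and Csmd2 at 0.804, 0, 0 and 0.166 CPM against 19.9, 0, 12.3 and 0.307 CPM (exact permutation p = 0.257). Vtn (vitronectin) was at 33.6 and 1.66 CPM in control C and D and at 0 elsewhere. Susd4, Sez6 and Sez6l2 had means of 5.57 ± 11.2, 9.99 ± 8.39 and 7.45 ± 6.32 CPM in the controls and 12 ± 12.8, 15.8 ± 12.1 and 7.91 ± 6.09 CPM with C1Q and C5. Cd59b, Cd46, Thbd, Cfi, Cd55b and Csmd3 had counts in at most 3 libraries each.

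Downstream of C5a receptors, 18 of 22 genes of G protein and kinase signalling were detected and 15 tested, with 0 called by edgeR or DESeq2, 7 above and 8 below 0, and a median log2 fold change of 0, which was -0.4 without C1Q+C5 D. Gna15, Plcb2, Pik3cg and Pik3r5, the forms typical of blood cells, were at 0 in all 8 libraries. Gnaq, a G protein subunit that drives phospholipase C, had the smallest p, at 44.1, 106, 120 and 130 CPM in the controls and 332, 116, 141 and 189 CPM with C1Q and C5 (0.96 ± 0.47, edgeR unadjusted p = 0.0647). Among C1q-related and C1q TNF family genes, secreted proteins with a C1q head, 13 of 21 were detected and 3 tested, with 0 called by either tool and a median of 0.57, which was -1.02 without C1Q+C5 C. Those tested were C1ql3 and Cbln2, which organise synapses, and C1qtnf4. C1ql3 had means of 5.21 ± 6.05 and 9.63 ± 7.58 CPM and Cbln2 10.7 ± 10.5 and 16.1 ± 19.9 CPM.

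Genes of astrocyte phagocytosis, the process that C1q tags targets for, were detected for 24 of 25 (Mertk at 0) and tested for 18. By edgeR and DESeq2 0 were called, 10 lay above and 8 below 0, and the median log2 fold change was 0.01, which was -0.32 without C1Q+C5 D and 0.4 without control A. Lamp2, a lysosomal membrane protein, had the smallest p, with means of 106 ± 56.7 CPM in the controls and 62.6 ± 21.4 CPM with C1Q and C5. Control A had a sum of 1732 CPM over the list, against 740 to 790 CPM in the other controls and 588 to 1003 CPM with C1Q and C5.

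Transcripts that mark reactive astrocytes were mostly low. Of 13 genes common to reactive states 7 were detected and 5 tested (median -0.14, from -0.95 without C1Q+C5 A to 0.25 under another setting), with Lcn2, Serpina3n, Osmr, Cxcl10, Aspg and Gfap at 0 in all 8 libraries. Of 13 genes of the A1 state, associated with neurotoxicity, 11 were detected and 4 tested (median -0.21, from -0.8 without the 3 libraries apart to 0.37 without control A), and of 13 genes of the A2 state 8 were detected and 4 tested (median 0.34, but 0.06 without C1Q+C5 C). Each list had 0 genes called by edgeR or DESeq2 and 0 at an unadjusted p below 0.05. H2-D1, an A1 gene of major histocompatibility complex (MHC) class I, had means of 15.7 ± 14.2 CPM in the controls and 15.6 ± 5.32 CPM with C1Q and C5. S100a10, an A2 gene, had 67.9 ± 20.7 and 76.1 ± 10.5 CPM, and Cd44, a hyaluronan receptor shared by reactive states, was at 4.02, 297, 87.5 and 139 CPM in the controls and 250.5, 41.1, 17.1 and 11 CPM with C1Q and C5.

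Inflammatory targets behaved likewise. Of 32 NF-κB and cytokine targets, 20 were detected and 5 tested (median 0.26, between -0.11 and 1.03 under other settings), with Tnf, Il1b, Il6, Cxcl1, Cxcl10 and Ccl5 at 0 in all 8 libraries. Nfkbia, the feedback inhibitor of NF-κB, had means of 15.1 ± 8.87 CPM in the controls and 30.1 ± 17 CPM with C1Q and C5, and Csf1, the macrophage growth factor, 3.55 ± 4.06 and 17.4 ± 11.3 CPM. Ccl2, a chemokine, was at 3.01, 0, 12.7 and 0 CPM against 0, 0, 13 and 0 CPM and did not pass the filter. Of 37 genes of interferon response and MHC class I, 23 were detected and 7 tested (median 0, from -0.3 without control D to 0.37 without control B, and 0.58 without the 3 libraries apart); Ifitm3, an antiviral membrane protein, was at 172, 92.9, 141 and 61.4 CPM against 452.5, 149, 299 and 67.3 CPM (1.03 ± 0.57, edgeR unadjusted p = 0.098). Of 30 AP-1 and immediate early genes, 26 were detected and 15 tested (median 0.01, from -0.41 without C1Q+C5 A to 0.48 without control A), with Jun at means of 5.08 ± 6.04 and 8.96 ± 13 CPM and Btg2, an antiproliferative factor, at 155 ± 19.6 and 96.2 ± 47.2 CPM. None of these lists had a gene called by edgeR or DESeq2 or at an unadjusted p below 0.05.

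DNA replication genes lay mostly on the lower side. All 44 passed the filter, and 36 had a log2 fold change below 0, with a median of -0.55 against -0.07 over all genes. By edgeR and DESeq2 0 were called, and 3 had an unadjusted edgeR p below 0.05, all lower: Rfc4, Uhrf1 and Gins1. Rfc4 (ENSMUSG00000022881), a subunit of the clamp loader, was at 488, 321, 531 and 477 CPM in the controls and at 231, 254, 263 and 80.9 CPM with C1Q and C5 (-1.15 ± 0.42, edgeR unadjusted p = 0.0185). Uhrf1, which keeps DNA methylation through replication, was at 67.8, 66, 79.5 and 65.5 CPM against 11.3, 33.7, 27.3 and 34.3 CPM (-1.38 ± 0.55, edgeR unadjusted p = 0.0272). In both, all C1Q+C5 libraries were below all controls. Gins1, a subunit of the replicative helicase, was at 76.4, 176, 162 and 120 CPM against 74.2, 56.3, 55.3 and 87.7 CPM (-0.96 ± 0.42, edgeR unadjusted p = 0.0423), where control A lay among the C1Q+C5 values.

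Groups did not overlap for 3 of the 44, Rfc4, Uhrf1 and Tyms (thymidylate synthase), against 0.764% of all genes on the lower side. Control A had the highest sum over the list: 5859 CPM, with 4501, 4476 and 3858 CPM in the other controls and 3033, 4044, 3056 and 2639 CPM with C1Q and C5. Without control A the median was -0.23, against 0.08 over all genes. The median was highest there among single libraries left out, and lowest, at -0.62, without C1Q+C5 B. With control A and C1Q+C5 B and D all left out, which was chosen after seeing the data, it was -0.51, against -0.08 over all genes. Sums with the other stimuli were 3076 to 3909 CPM (IL-1α and TNF-α), 2620 to 3981 CPM (IL-1β and IL-6) and 2495 to 3778 CPM (TGF-β2), ranges close to that with C1Q and C5 and mostly below the controls.

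Mitosis genes, 40 of 40 tested, had 33 below 0 and a median of -0.35, which stayed between -0.46 and -0.22 without any single library. By edgeR and DESeq2 0 were called, and Spc25 was the 1 gene with an unadjusted edgeR p below 0.05. Mad2l1, of the spindle checkpoint, was at 91.8, 256, 271 and 295 CPM in the controls and 159, 101, 177 and 50.1 CPM with C1Q and C5 (-0.91 ± 0.49, edgeR unadjusted p = 0.0883). Cenpa, the centromeric histone, was at 309, 306, 559 and 339 CPM against 254, 305, 228 and 194 CPM (-0.63 ± 0.35, edgeR unadjusted p = 0.0974), a gap between the groups that was narrow at control B and C1Q+C5 B. Sums over the list were 4580, 4821, 5355 and 5167 CPM in the controls and 4182, 4580, 3786 and 2973 CPM with C1Q and C5.

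Genes of protein folding in the endoplasmic reticulum (the unfolded protein response) had 27 of 30 tested, 19 of them below 0, and a median of -0.42. Without control A it was -0.13, against 0.08 over all genes. Sums were 5014, 5922, 5402 and 5200 CPM in the controls and 4605, 4563, 4401 and 2896 CPM with C1Q and C5, without overlap. Manf, a secreted factor of endoplasmic reticulum stress, had means of 388 ± 101 and 254 ± 73.3 CPM, and Hspa5, the main chaperone, was at 747, 414, 390.3 and 261 CPM against 416, 485, 159 and 354 CPM. Atf4, the transcription factor of the integrated stress response, went the other way, with 43.6 ± 27 and 84.7 ± 43.6 CPM. Mthfd2, an enzyme of folate metabolism, was at 167, 26.6, 41.6 and 16.5 CPM against 25.2, 46.1, 50.5 and 20.4 CPM. The list had 0 genes called by edgeR or DESeq2 and 0 at an unadjusted p below 0.05.

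MYC targets and ribosome biogenesis genes, 40 of 40 tested, had 28 below 0 and a median of -0.26. Without control A the median was -0.02, against 0.08 over all genes. By edgeR and DESeq2 0 were called and 0 had an unadjusted p below 0.05. Ranbp1, a partner of Ran, was the most abundant, at 1880, 2887, 3213 and 2657 CPM in the controls and 2161, 1729, 2497 and 664 CPM with C1Q and C5. Peroxiredoxins Prdx3 and Prdx4 had means of 91.8 ± 8.63 and 216 ± 102 CPM in the controls and 103 ± 48.5 and 162 ± 60.1 CPM with C1Q and C5. Ppia, Psma1 and Ywhaq (cyclophilin A, a proteasome subunit and a 14-3-3 protein) had 604 ± 84.6, 434 ± 63.1 and 415 ± 72.4 CPM against 486 ± 128, 364 ± 120 and 370 ± 88.2 CPM, all with overlap.

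Collagens and extracellular matrix genes had 24 of 45 tested, 16 above 0, and a median of 0.43, which lay between 0 (without control D) and 0.6 when single libraries were left out. Ncan, the brain proteoglycan neurocan, was the most abundant, at 128, 1500, 1020 and 1269 CPM in the controls and 1910, 1146, 1437 and 414 CPM with C1Q and C5. Vcan, another proteoglycan, had the smallest p, with means of 27.4 ± 13.4 and 54.9 ± 40 CPM, while Dcn (decorin) had 313 ± 328 and 153 ± 131 CPM. Axon guidance and neurotrophic factors made by glia had 19 of 34 tested, 12 above 0 and a median of 0.2, which was 0.01 without control D and 0.75 without control B. Gpc4, a glypican by which astrocytes promote synapses, was at 27.8, 16, 31.4 and 5.32 CPM in the controls and 47.7, 40.1, 96.2 and 39.9 CPM with C1Q and C5, without overlap (1.46 ± 0.71, edgeR unadjusted p = 0.0618). Both lists had 0 genes called by edgeR or DESeq2 and 0 at an unadjusted p below 0.05.

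**Figure D4:**
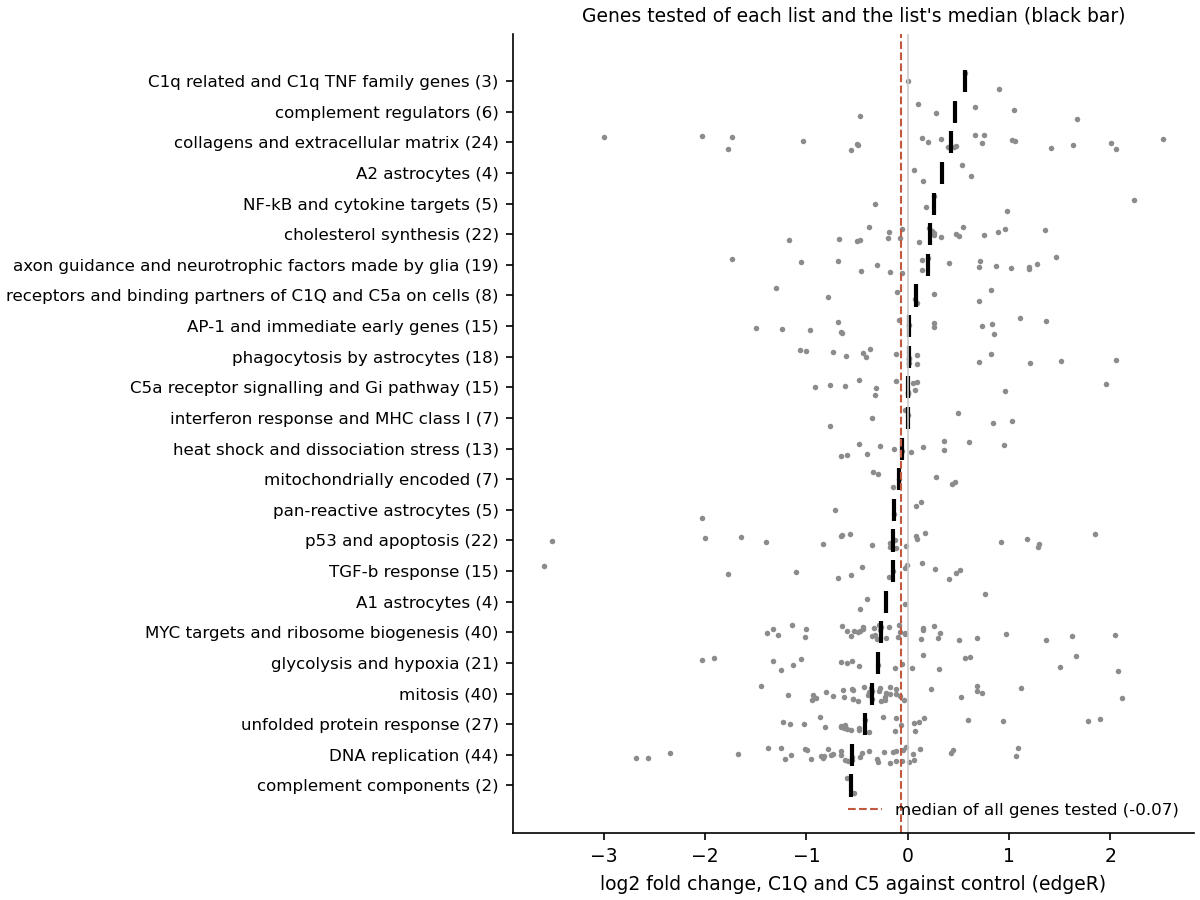
Log2 fold change of C1Q and C5 against control (edgeR, 4 libraries a group) for each gene tested of each list; each point is 1 gene, each black bar the list's median, the number of genes stands in brackets and the dashed line is the median of all genes tested, -0.07. DNA replication, unfolded protein response and mitosis have medians of -0.55, -0.42 and -0.35 and collagens and extracellular matrix 0.43.

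Among p53 and apoptosis genes, 22 of 24 tested, 14 lay below 0, the median was -0.15 (0.29 without control A) and 0 were called by edgeR or DESeq2 or had an unadjusted p below 0.05. Sesn1, a stress sensor that restrains mTORC1, was at 11.8, 25.3, 17.7 and 6.48 CPM in the controls and 0, 4.17, 0 and 0.766 CPM with C1Q and C5, without overlap (-3.51 ± 1.66, edgeR unadjusted p = 0.0571). Mdm2, the ubiquitin ligase of p53, was at 39, 53.7, 17 and 13.1 CPM against 91.4, 107, 36.2 and 67.6 CPM (1.29 ± 0.62, edgeR unadjusted p = 0.0598), and Cdkn1a, the p21 inhibitor of the cell cycle, had means of 96.5 ± 51.9 and 90.2 ± 39.9 CPM. The direction was thus mixed, with Cdkn1a near equal.

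TGF-β response genes (24 of 26 symbols matched, 15 tested) had 10 below 0 and a median of -0.15, which was above 0 in 3 of 17 alternatives and reached 0.3. Tgfb3, a TGF-β ligand, was at 12.9, 8.96, 11.2 and 0 CPM in the controls and 0.663, 1.56, 0 and 0.307 CPM with C1Q and C5 (-3.59 ± 1.83, edgeR unadjusted p = 0.074). Cholesterol synthesis (22 of 24 tested, 13 above 0) had a median of 0.22, which was -0.04 without C1Q+C5 B, and glycolysis and hypoxia (21 of 26, 13 below 0) -0.29, which was 0.23 without control A. Ldha, lactate dehydrogenase, was at 230.3, 44.2, 11.9 and 27.9 CPM in the controls and 14.6, 63.7, 10.9 and 38.2 CPM with C1Q and C5. Vegfa, a growth factor of vessels, had means of 3.95 ± 5.3 and 1.87 ± 1.12 CPM. Heat shock and dissociation stress genes (13 of 18 tested) had a median of -0.06 (0.3 without control A) and mitochondrially encoded genes (7 of 13) -0.09 (0.12 without C1Q+C5 C). The most abundant of these, Hsp90ab1 and mt-Cytb, had 857 ± 192 and 15840 ± 8716 CPM in the controls and 1105 ± 526 and 12450 ± 5221 CPM with C1Q and C5. All these lists had 0 genes called by edgeR or DESeq2 and 0 at an unadjusted p below 0.05.

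Neuronal and progenitor genes gave a few values apart. Syt1, the calcium sensor of synaptic vesicles, was at 5.63, 1.24, 5.78 and 4.32 CPM in the controls and 7.29, 46.7, 15 and 31.3 CPM with C1Q and C5, without overlap (2.55 ± 1.15, edgeR unadjusted p = 0.0464). Elavl3, a neuronal RNA binding protein, was at 124, 112, 57.5 and 71.8 CPM against 209, 109, 107 and 309 CPM (1 ± 0.48, edgeR unadjusted p = 0.0584). Syt1 was the 1 gene of the 17 neuronal markers tested with an unadjusted p below 0.05; 14 of the 17 lay above 0, with a median of 0.26 and 0 called by edgeR or DESeq2. Notch1, the receptor that keeps progenitors undifferentiated, was at 25.9, 27.3, 23.5 and 26.1 CPM in the controls, a narrow band, and at 22.5, 53.2, 46.4 and 131 CPM with C1Q and C5 (1.31 ± 0.63, edgeR unadjusted p = 0.0624).

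Nkx6-1 and Pax6, transcription factors by which the paper places ES-astrocytes in the ventral domain, overlapped in level between the groups. Nkx6-1, of motor neuron progenitors, had means of 155 ± 54.8 CPM in the controls and 146 ± 44 CPM with C1Q and C5, and Pax6 21.7 ± 7.54 and 24.8 ± 10.4 CPM. Mnx1, the gene of Hb9, was at 20, 2.93, 0 and 0.166 CPM against 2.65, 5.82, 4.77 and 19.6 CPM, highest in control A and C1Q+C5 D. Tubb3, the neuronal tubulin, was also highest there, at 870 and 735 CPM, with 84.6 to 384 CPM in the other 6 libraries. Tubb2a, another tubulin, was at 67.7, 10.3, 10.5 and 15.1 CPM against 25.8, 22.7, 9.55 and 191 CPM, and Fgfr3, a receptor of glial precursors, had means of 11.9 ± 11.7 and 22.3 ± 20.3 CPM.

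Direct comparisons with the other stimuli asked where C1Q and C5 differ from them. Against IL-1α and TNF-α edgeR called 0 of 9832 genes (0%), with 114 at an unadjusted p below 0.05; DESeq2 called 20 and limma-voom 0. Against IL-1β and IL-6 it called 0 of 10346 (173 unadjusted; DESeq2 41, limma-voom 0), and against TGF-β2 0 of 10798 (154 unadjusted; DESeq2 28, limma-voom 0). The last pair of comparisons lies within plate index 2. All share the 4 C1Q+C5 libraries, and the genes named from them were chosen after their values were seen.

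Ccl5 (ENSMUSG00000035042, chromosome 11, 83525778 to 83530518), a chemokine that NF-κB induces, had 0 counts in all C1Q+C5 and all control libraries and was at 50.3, 12.9, 55.5 and 68.9 CPM with IL-1α and TNF-α, at least 328-fold lower with C1Q and C5 (edgeR unadjusted p = 3.36e-05, adjusted p = 0.33). It thus had no count in any C1Q+C5 library and was detected in all 4 libraries of the positive control. Sums of the NF-κB list were 153 to 279 CPM with C1Q and C5, 155 to 274 CPM in the controls and 349 to 637 CPM with IL-1α and TNF-α. The C1Q+C5 and control ranges thus nearly coincided, and both lay below that of the positive control.

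Within plate index 2, Nupr1, a stress-induced chromatin protein, was at 57, 64.9, 93.4 and 65.4 CPM with C1Q and C5 and at 151, 873, 272 and 807 CPM with TGF-β2 (-2.9 ± 0.53, edgeR unadjusted p = 0.000137). In the controls it was at 80, 37.3, 22.4 and 135 CPM, a range that holds the C1Q+C5 values. Hoxb5, a positional gene of the hindbrain and spinal cord, was at 111, 144, 49.8 and 161 CPM with C1Q and C5, at 555, 380.3, 399.5 and 483 CPM with TGF-β2 and at 161, 114, 110 and 225 CPM in the controls. Ptn, the growth factor pleiotrophin, was at 130.5, 107, 140 and 67.4 CPM with C1Q and C5 and at 39.9, 24.9, 40.5 and 33.9 CPM with TGF-β2 (1.68 ± 0.43, edgeR unadjusted p = 0.00185), with 46.1, 99.9, 109.5 and 16.8 CPM in the controls.

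Dbp, a clock-controlled transcription factor, had 0 counts in the 4 libraries with IL-1α and TNF-α and in the 4 with IL-1β and IL-6. It was at 17.2, 8.17, 17.7 and 5.06 CPM with C1Q and C5, at least 81.5-fold and 98.2-fold higher, and at 10.4, 4.7, 21 and 0 CPM in the controls. Nckap5 had 0 counts in all 12 libraries of the other stimuli and was at 7.95, 10.7, 15 and 3.53 CPM with C1Q and C5; in the controls it was at 0, 0, 0 and 7.32 CPM.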

How the data were processed

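Raw integer counts per gene were used as the authors deposited them; the submitters' processing notes name STAR and DESeq2, while genome build, annotation, strand setting and versions were not given in the sources used here. Of 55487 gene IDs 55141 were named through GENCODE M21 (GRCm38), which also gave places and summed exon lengths; 22274 had a count in the 8 libraries. Genes passing filterByExpr were fitted with edgeR 4.0.16 (TMM, robust quasi-likelihood) in R 4.3.3, with Benjamini-Hochberg adjustment over all genes tested. Alternatives were DESeq2 1.42.0 at its default alpha of 0.1, limma 3.58.1 voom with sample quality weights, RLE scaling, no filter, a filter of 10 counts in 4 libraries, a fit without robust estimation, all 20 ES-astrocyte libraries, a replicate block and leaving out libraries. Single values below the filter had exact two-sided permutation tests. Principal components used rlog values of genes with a summed count above 1, computed on 1 thread; with more threads the coordinates moved slightly. Figures used matplotlib 3.10.9.

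The groups of libraries, gene lists and markers were chosen with earlier results of these data known. Genes named are called genes, the 10 of smallest p in each direction (predicted genes left out), up to 4 members of smallest p of each list, detected complement receptors, components and regulators, genes that the paper names in these cells, and called genes of the direct comparisons; others are said to be named after their values were seen. Log2 fold changes are printed for the genes of smallest p and for list members with an unadjusted p below 0.1, other members are given by their level. The sequencing files, the ES-motor neuron libraries and tests of gene sets were not used here.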

Additional observations from a re-analysis of the deposited data

Results flagged for a closer look

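In each group of 4 libraries, a library far from the other 3 was looked for in library measures, list sums and the genes of smallest p; 10 of 113 groups had one, and chance gives about 1 in 20. The gap to the nearest library, as a share of the group's range, is given in brackets.

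Control A stood far from the other controls in 8 of the 10. Its sum of endothelial markers was 9.04 CPM against 0 to 0.333 CPM (0.963). The sum of glycolysis and hypoxia genes was 2297 CPM against 543 to 610.3 CPM (0.962), that of phagocytosis genes 1732 CPM against 740 to 790 CPM (0.95), and that of p53 and apoptosis genes 1625 CPM against 643 to 746 CPM (0.895). Mitochondrially encoded genes were low, at 7596 CPM against 30340 to 34790 CPM (0.836), and took 1.12% of all counts against 3.53% to 3.87% (0.874). Mbnl3 was at 2.01 CPM against 21.1 to 23.9 CPM (0.875) and Eif1ax at 252 CPM against 441 to 470 CPM (0.863).

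Of the C1Q+C5 libraries, B had an endothelial marker sum of 3.65 CPM against 0 to 0.153 CPM (0.958), and D a sum of unfolded protein response genes of 2896 CPM against 4401 to 4605 CPM (0.881).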

How the results depend on the processing

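Against control, edgeR called 0 genes under RLE scaling, no filter, the stricter filter, no robust estimation and all 20 ES-astrocyte libraries, with 109, 2583, 106, 108 and 568 genes at an unadjusted p below 0.05; limma-voom called 0 (657 unadjusted). DESeq2 called 40 genes, 33 higher and 7 lower. Against IL-1α and TNF-α, IL-1β and IL-6, and TGF-β2 DESeq2 called 20, 41 and 28 genes, and edgeR with no filter 1, 0 and 2; the cause was not tested. Leaving out single libraries gave 0 to 0 called in every comparison, with 116 to 524, 130 to 299, 154 to 606 and 160 to 376 genes at an unadjusted p below 0.05 by edgeR. Leaving out the libraries apart on the first component, chosen after seeing the data, gave 0 called in each (362, 511, 296 and 659 unadjusted). With a replicate block edgeR called 0 genes in every comparison (84, 188, 294 and 128 unadjusted); libraries of the same letter had correlations of -0.216, -0.144, 0.0567 and -0.0685 (A to D), so that replicates were treated as unpaired.

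The median log2 fold change of all genes tested was 0.17 in the DESeq2 fit and 0.11 in the limma-voom fit, against -0.07 with edgeR and -0.04 with edgeR and RLE scaling. With edgeR and without control A it was 0.08. Of 34 genes given with a log2 fold change, 0 changed sign under any alternative in which they were tested, and 12 were called by DESeq2 and 0 by the others. The number of such alternatives ran from 14 (Src) to 17. These genes were chosen by small p in the same libraries, so that a stable sign was likely from the start and is no separate evidence. With no library left out singly, the list medians ran from -0.58 to -0.36 for DNA replication, -0.35 to -0.21 for mitosis, -0.46 to -0.2 for the unfolded protein response and 0.22 to 1.02 for extracellular matrix. Leaving out single libraries gave -0.62 to -0.23, -0.46 to -0.22, -0.56 to -0.13 and 0 to 0.6.

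About 200 cells a library, depths from 1510823 to 13384392 counts, 4 libraries a group and a plate index shared by no pair of C1Q+C5 and control libraries limit what these data can show. Genes below 0.266 to 1.08 CPM in a control library, or 0.261 to 2.05 CPM in a C1Q+C5 library, fall under 3 counts.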
